A study of Homo sapiens with 4 samples.

Results

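The DNA replication machinery is described here through 45 genes in SeAx cells, a line derived from Sézary syndrome, the leukaemic form of cutaneous T-cell lymphoma. The genes were taken by symbol from a written list of factors that license origins, unwind DNA, copy it and supply its nucleotides, and all 45 were named on the array among the 18244 genes tested. They were read by 115 of the 49293 probe sets tested, and each gene was represented by its brightest probe set unless another is named. Total RNA was read on 4 Affymetrix PrimeView arrays, 2 of cells carrying a lentiviral vector for the microRNA miR-124 and 2 of control cells. The comparison asks how the transcriptome of these cells changes when miR-124 is put back. The miR-124 cells were selected in puromycin. The labels call the other cells only control, and the study's text describes them as not transduced, so the vector, the selection and miR-124 itself cannot be told apart in the comparison. All arrays are of 1 cell line. Each label also carries an array number, 1 or 2, within its condition. What the number stands for is not given in the sources used here, and neither is whether arrays of 1 condition hold separate cultures, so p-values measure only the spread between these arrays, which may be technical.

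Replication begins when the origin recognition complex, CDC6 and CDT1 load the ring-shaped MCM2-7 helicase onto DNA, a step called licensing. CDC45 and the GINS complex then turn the helicase on, RPA coats the single strands, polymerase alpha with primase lays down primers, and polymerases epsilon and delta extend them with the clamp PCNA, which the RFC complex loads. Many of these genes are transcribed at the border of G1 and S phase by E2F factors, which the retinoblastoma protein holds back, and the set is widely read as a sign of cycling cells.

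The letters that E2F factors are known to bind were looked for in the promoters of the members, because many replication genes are known E2F targets. The list did not use promoter letters, and regulation by E2F was not measured here. RefSeq windows of 300 bases, with 250 before and 50 after an annotated start (build GRCh38.p14), were held for 39 of the 45 genes. An E2F match meant TTTCCCGC, TTTGGCGC, TTTCGCGC or TTTGCCGC on either strand. Such a match stood in the promoters of 19 of the 39 genes (48.7%), against 3.99% of all 27305 genes with windows. Those genes were not limited to genes on the array, nor matched to the members for expression or base composition. Of other common promoter elements, also searched on both strands, CCAAT stood in 61.5% of the 39 genes against 39.7% of all genes, the GC box GGGCGG in 74.4% against 48.3% and the E-box CACGTG in 15.4% against 8.77%. The letters of the GC box and of an E2F match can overlap. The windows of 40 bases that follow are printed 5′ to 3′ on the strand of the gene with the matches in capitals, and a match describes the sequence without showing that a factor binds there. The helicase genes MCM6 and MCM2 are shown because their matches read on both strands within 12 letters, POLE2 because it was the only gene with a match that passed the study's threshold in a comparison given further on, PCNA and CDC6 as members of other roles, and ORC3 and POLA2 because they hold a match and had a number difference near 0, unlike most members.
MCM6, chr2:135876572-135876611, minus strand: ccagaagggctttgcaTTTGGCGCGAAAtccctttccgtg
MCM6, chr2:135876510-135876549, minus strand: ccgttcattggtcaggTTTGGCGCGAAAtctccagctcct
MCM2, chr3:127598397-127598436, plus strand: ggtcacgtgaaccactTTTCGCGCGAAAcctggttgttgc
POLE2, chr14:49688196-49688235, minus strand: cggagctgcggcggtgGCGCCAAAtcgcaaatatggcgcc
PCNA, chr20:5126658-5126697, minus strand: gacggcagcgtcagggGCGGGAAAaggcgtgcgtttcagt
CDC6, chr17:40287870-40287909, plus strand: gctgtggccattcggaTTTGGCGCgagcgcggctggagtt
ORC3, chr6:87590107-87590146, plus strand: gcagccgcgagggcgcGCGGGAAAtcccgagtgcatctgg
POLA2, chr11:65261893-65261932, plus strand: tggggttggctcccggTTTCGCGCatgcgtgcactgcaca

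**Figure D1:**
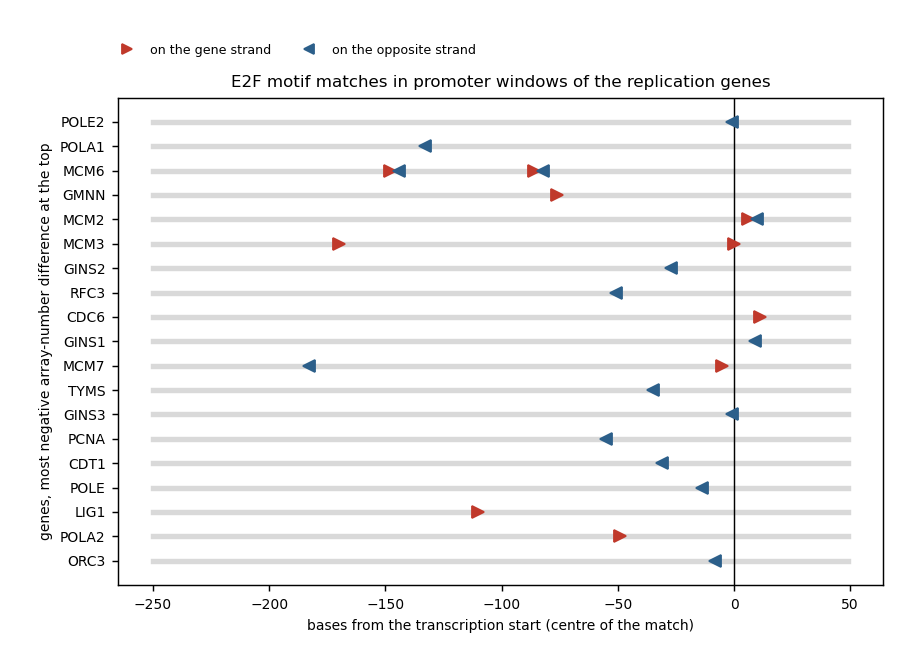
Position of E2F matches (marks) along the promoter windows (bars) of the 19 members that hold one, with distance in bases from the annotated start on the horizontal axis and 1 row per gene. MCM6 has 2 pairs of overlapping matches, and the match of POLE2 begins at position -5 and spans the start. Triangles show the centre of each match and its strand, and genes with the most negative number difference are at the top.

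The members were well expressed on every array. Their deposited log2 values lay between 8.54 and 13.41, and all 45 had a mean above 7.608, the median over all genes, while the array's background probe sets averaged 5.18 to 5.23. Levels of different genes are not compared, since each probe set has its own response. The arrays were alike in their overall medians (7.27 to 7.31), and the summed linear signal of the 45 genes was 112344 and 85624 in miR-124 cells (arrays 1 and 2), against 107400 and 92804 in control cells. The 2 arrays numbered 2 thus held the lowest sums, and the ranges of miR-124 and control cells overlapped. Because the authors quantile-normalized the arrays, every value is relative to the other genes of its array, and a change of total RNA per cell would not be seen.

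**Figure D2:**
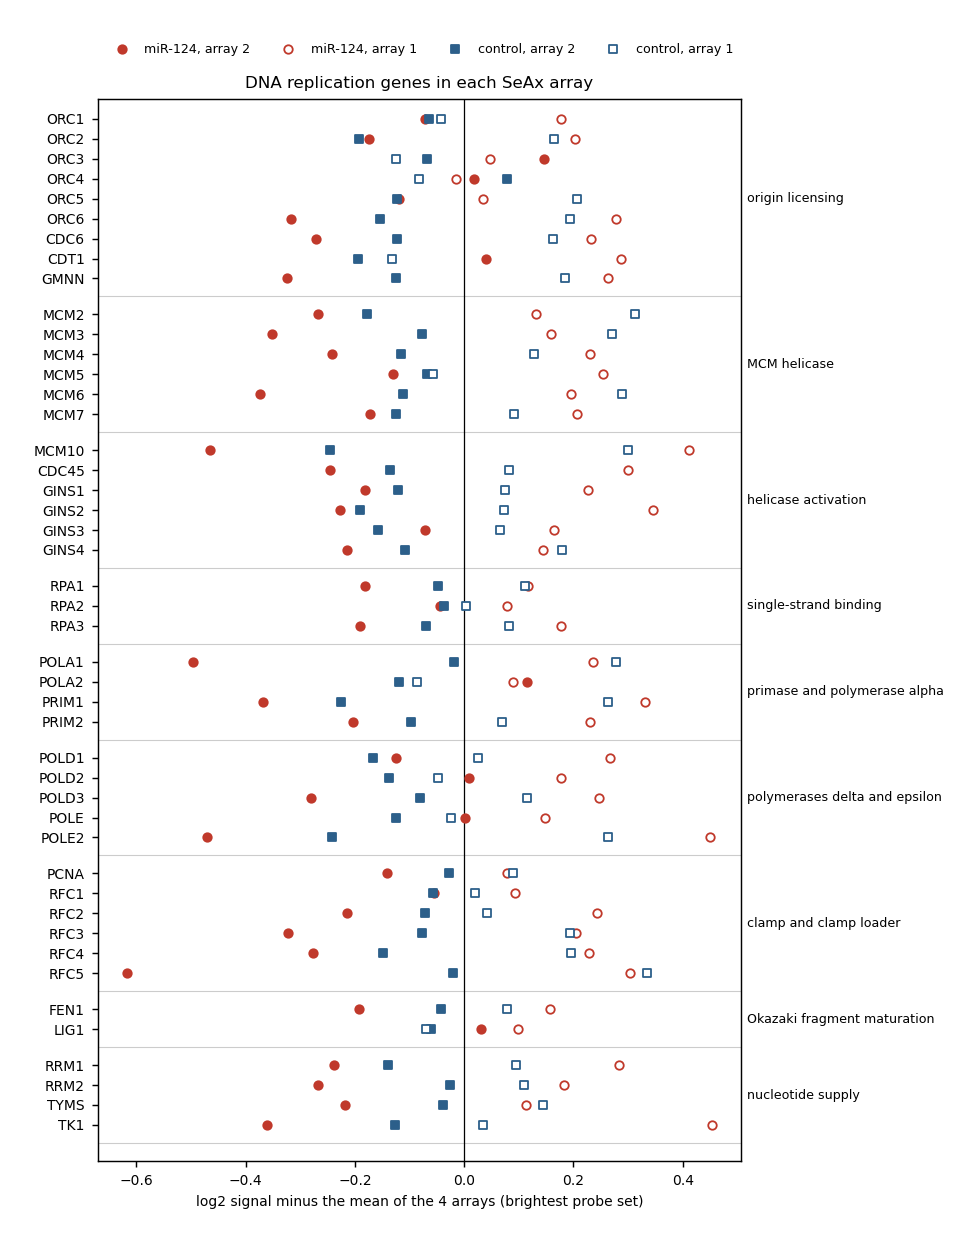
Level of each of the 45 members on each of the 4 arrays, drawn as the log2 difference from the mean of that gene over the arrays, with genes in rows grouped by role. The medians over the members were 0.20 and -0.21 in miR-124 cells (arrays 1 and 2), against 0.09 and -0.12 in control cells.

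No member passed the study's threshold (a fold change above 1.5 with an unadjusted p under 0.05) between miR-124 and control cells, where 0.153% of all genes did in the present fit. The study itself reported more genes past this threshold. By a test of gene sets it also reported E2F targets as lower in miR-124 cells, and no such test was run here. The mean was higher in miR-124 cells for 22 members and lower for 23. This split changed when single arrays were left out, which also leaves the array numbers unequal between the conditions. Members differed by array number, as given further on, so such fits mix the condition with the number. Without array 2 of miR-124 cells 43 were higher and 2 lower (median 0.21). Without array 1 of miR-124 cells 7 were higher and 38 lower (median -0.21). Without array 2 of control cells 12 were higher and 33 lower, and without array 1 of control cells 38 were higher and 7 lower. The median difference, miR-124 minus control, was -0.013 on the log2 scale (range -0.31 to 0.33), against 0.0056 over all genes. At an unadjusted p under 0.05 alone, 1 member was higher in miR-124 cells and 0 were lower, where 2.7% of all genes were higher and 1.76% lower, and no member had an adjusted p under 0.05 in limma. Both miR-124 arrays lay above both control arrays for 6 members (ORC3, CDT1, POLA2, POLD2, POLE and LIG1), or 13.3%, against 18.7% of all genes, and below them for 0 members, against 15.5% of all genes. The same held over the 115 probe sets of the members, of which 0 passed the threshold where 0.185% of all probe sets did. The missing calls do not show that miR-124 left these genes alone. The 95% interval of the difference stayed within a 1.5-fold change in either direction for 28 members and reached it for 17, with a median half-width of 0.455 on the log2 scale. These intervals come from the fit without the array number, so their width includes the spread between the numbers. With the number as a block the SE was 0.15 for RFC5, against 0.34 without it, and 0.072 for POLA2, against 0.080.

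The member with a nominal difference on its brightest probe set was CDT1, which brings the helicase to the origin. Its level was 10.25 and 10.00 in miR-124 cells (arrays 1 and 2), against 9.83 and 9.77 in control cells. The groups did not overlap, and the difference was 0.33 (SE 0.12, n = 2 arrays each, limma unadjusted p = 0.041). Over the alternatives the unadjusted p in limma ranged between 0.014 and 0.17, and the difference stayed positive. The other probe sets of CDT1 had differences of 0.17, with overlapping groups, and 0.28, without overlap (limma unadjusted p = 0.24 and 0.10). By the brightest probe sets the next largest positive differences belonged to POLA2, ORC3 and POLD2. POLA2, the regulatory subunit of polymerase alpha, read 9.33 and 9.36 in miR-124 cells, against 9.16 and 9.12 in control cells, a difference of 0.20 (SE 0.080). ORC3, a subunit of the origin recognition complex, read 10.76 and 10.86 in miR-124 cells, against 10.59 and 10.65 in control cells (difference 0.19, SE 0.087). POLD2, the small subunit of polymerase delta that holds its catalytic subunit, read 11.30 and 11.14 in miR-124 cells, against 11.08 and 10.99 in control cells (difference 0.18, SE 0.10). On these probe sets the groups did not overlap either, and none of the 3 reached an unadjusted p of 0.05. With the array number as a block POLA2 and ORC3 did, with no change in their differences (limma unadjusted p = 0.042 and 0.049). The other probe set of POLA2 had a difference of 0.058 and overlapped, and that of POLD2 had 0.27 without overlap (limma unadjusted p = 0.041). Those of ORC3 ranged between -0.074 and 0.27. The ORC3 probe sets with 0.25 and 0.27 had no overlap (limma unadjusted p = 0.033 and 0.029). No probe set of a member was lower in miR-124 cells at an unadjusted p under 0.05.

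The largest negative differences belonged to RFC5, POLA1, MCM3 and MCM6. RFC5, a subunit of the clamp loader, read 10.33 and 9.41 in miR-124 cells (arrays 1 and 2), against 10.36 and 10.00 in control cells, so that array 2 of miR-124 cells was the lowest and the groups overlapped. The difference was -0.31 (SE 0.34) in limma. POLA1, the catalytic subunit of polymerase alpha, had the same shape, with 9.27 and 8.54 in miR-124 cells, against 9.32 and 9.02 in control cells (difference -0.26, SE 0.27). Without array 1 of miR-124 cells both passed the threshold, with a difference of -0.77 for RFC5 and -0.63 for POLA1, where 1.86% of all genes then passed. Without array 2 both differences changed sign, to 0.15 for RFC5 and 0.11 for POLA1. Leaving out either array also leaves the array numbers unequal between the conditions. The other probe sets of RFC5 had differences of 0.17 and -0.081 with all arrays. The helicase subunits MCM3 and MCM6 followed. MCM3 read 12.29 and 11.78 in miR-124 cells, against 12.40 and 12.05 in control cells (difference -0.19, SE 0.22), and MCM6 read 11.19 and 10.62, against 11.29 and 10.89 (difference -0.18, SE 0.24). Within arrays numbered 1, miR-124 minus control was -0.031 for RFC5, -0.041 for POLA1, -0.11 for MCM3 and -0.093 for MCM6. Within arrays numbered 2 it was -0.60, -0.48, -0.27 and -0.26. Each of these values sets a single array against another.

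Between the array numbers nearly all members differed in one direction. When the 2 arrays numbered 2 were set against the 2 numbered 1, each pair holding 1 miR-124 and 1 control array, the mean was lower on arrays numbered 2 for 43 of the 45 members and higher for ORC3 and ORC4. The median difference, numbered 2 minus numbered 1, was -0.30 on the log2 scale (range -0.71 to 0.097), against 0.0017 over all genes and 0.0093 over genes above the median level. The genes MCM10, POLE2, PRIM1 and RFC5 passed the study's threshold, all lower on arrays numbered 2, which is 4 of 45 members or 8.89%, where 0.68% of all genes and 0.976% of genes above the median level were lower past it. With 1 array left out 2 to 7 members passed it, 2 without array 2 of miR-124 cells and 7 without array 2 of control cells. No member passed it in the other direction, where 1.6% of all genes did. At an unadjusted p under 0.05 alone, 32 members (71.1%) were lower, against 6.27% of all genes. Both arrays numbered 2 lay below both arrays numbered 1 for 38 members (84.4%), against 22.1% of all genes, and above them for ORC4 alone, against 23% of all genes. After adjustment over all genes no member had an adjusted p under 0.05, while 0.345% of all genes did, and the smallest among the members was 0.083 for MCM10. For 39 members the number difference was larger in size than the difference between conditions, against 55% of all genes. In RNA from bulk culture, fewer cells in S phase and less of these RNAs per cell cannot be told apart.

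**Figure D3:**
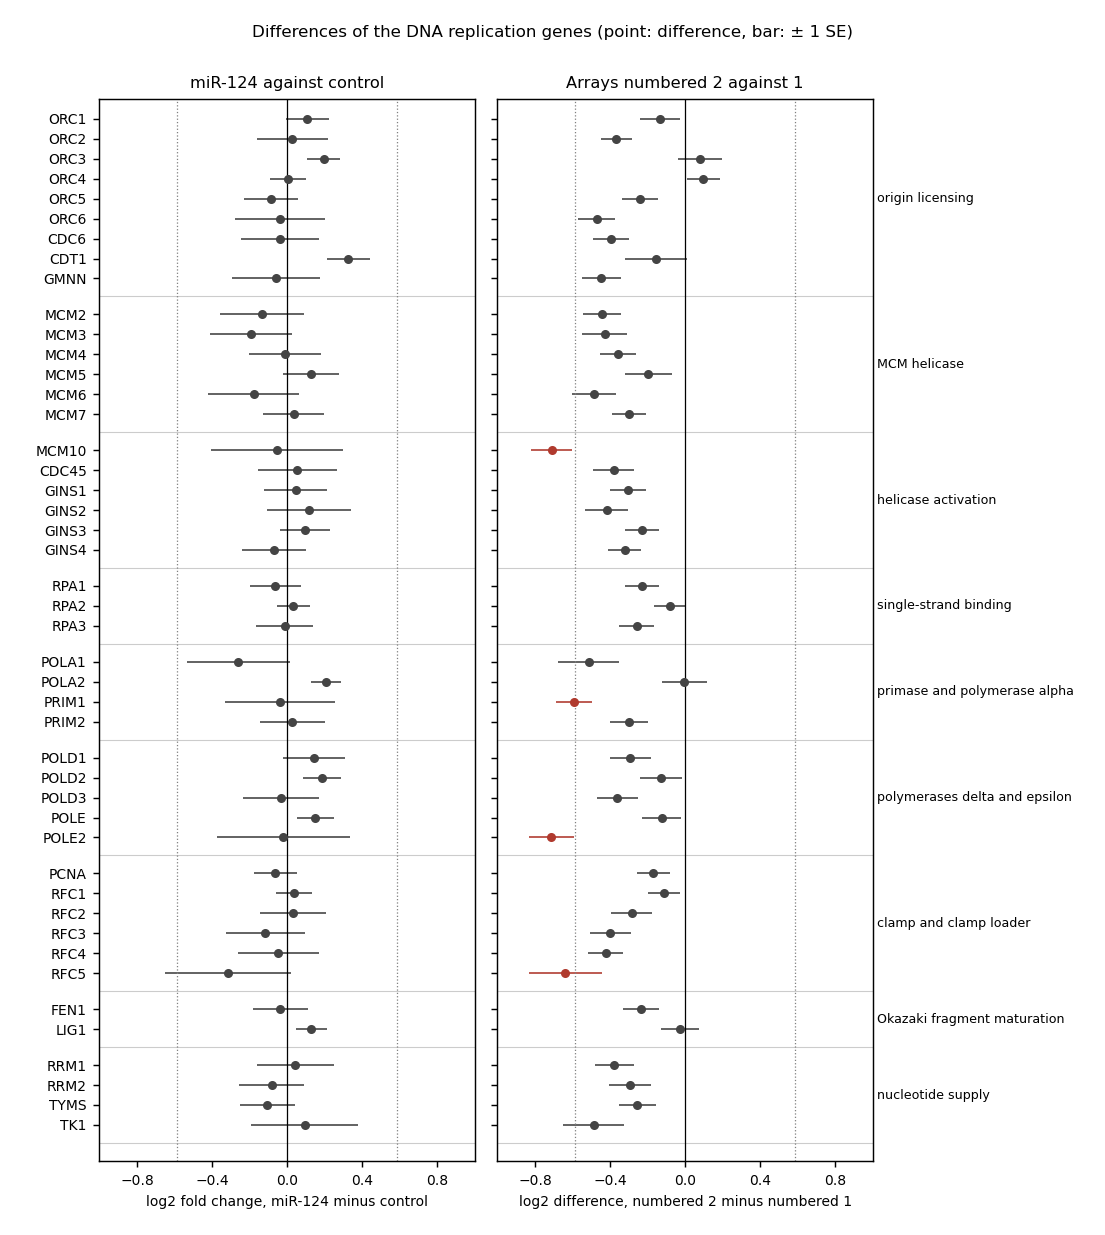
Log2 difference of each member between conditions (left, miR-124 minus control) and between array numbers (right, numbered 2 minus numbered 1), with genes in rows, the standard error from limma as lines on either side, dotted lines at a 1.5-fold change and genes past the threshold in red. The left values lie on both sides of 0 (median -0.013), and on the right 43 of 45 lie below it (median -0.30).

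Origin licensing factors were mixed. Of the 9 genes, 6 had both arrays numbered 2 below both numbered 1, 5 were lower at an unadjusted p under 0.05 and none passed the threshold (median -0.24). ORC6, the smallest subunit of the origin recognition complex, read 9.31 (miR-124) and 9.48 (control) on arrays numbered 2, against 9.91 (miR-124) and 9.83 (control) on arrays numbered 1. The licensing ATPase CDC6 read 11.89 (miR-124) and 12.04 (control) on arrays numbered 2, against 12.39 (miR-124) and 12.32 (control) on arrays numbered 1. Geminin (GMNN), which binds CDT1 and stops relicensing, read 11.16 (miR-124) and 11.36 (control) on arrays numbered 2, against 11.74 (miR-124) and 11.67 (control) on arrays numbered 1. These 3 differences were -0.47, -0.40 and -0.45 (limma unadjusted p = 0.0033, 0.0065 and 0.0054). CDT1, the partner of geminin, had a number difference of -0.16 (SE 0.16) and overlapped between the numbers.

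The other subunits of the origin recognition complex had differences of either sign. ORC2 read 9.18 (miR-124) and 9.16 (control) on arrays numbered 2, against 9.55 (miR-124) and 9.52 (control) on arrays numbered 1, a difference of -0.37 (SE 0.084), with the conditions almost equal within each number. A dimmer probe set of ORC2 passed the threshold, with 7.30 (miR-124) and 7.38 (control) on arrays numbered 2, against 7.87 (miR-124) and 7.99 (control) on arrays numbered 1 (difference -0.59). ORC5 and ORC1 had differences of -0.24 and -0.14. For ORC1, the subunit whose amount varies over the human cell cycle, only array 1 of miR-124 cells (9.15) stood apart from the other 3 arrays (8.91 to 8.93). ORC4, an ATPase-family subunit, read 10.02 (miR-124) and 10.08 (control) on arrays numbered 2, against 9.99 (miR-124) and 9.92 (control) on arrays numbered 1, a difference of 0.097 (SE 0.087). For ORC3, whose levels are given above, the difference was 0.078 (SE 0.12), and its groups overlapped by number.

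All 6 subunits of the MCM2-7 helicase had both arrays numbered 2 below both numbered 1, with a median of -0.39 and a range from -0.49 (MCM6) to -0.20 (MCM5), and 5 of the 6 were lower at an unadjusted p under 0.05. MCM2 read 10.86 (miR-124) and 10.95 (control) on arrays numbered 2, against 11.26 (miR-124) and 11.44 (control) on arrays numbered 1, a difference of -0.44 (SE 0.10). MCM4 read 11.66 (miR-124) and 11.79 (control) on arrays numbered 2, against 12.13 (miR-124) and 12.03 (control) on arrays numbered 1, a difference of -0.36 (SE 0.096). A dimmer probe set of MCM4 passed the threshold, with 9.97 (miR-124) and 10.64 (control) on arrays numbered 2, against 10.95 (miR-124) and 10.98 (control) on arrays numbered 1 (difference -0.66). MCM7 had a difference of -0.30 (SE 0.091). MCM5 alone in the ring fell short of an unadjusted p of 0.05, since its control arrays were almost equal (10.91 on array 2 and 10.92 on array 1).

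The factors that activate the helicase held the member with the smallest p. MCM10, which is needed to start the loaded helicase, read 8.94 (miR-124) and 9.16 (control) on arrays numbered 2, against 9.82 (miR-124) and 9.71 (control) on arrays numbered 1, a 1.64-fold lower level (difference -0.71, SE 0.11, limma unadjusted p = 0.00071). Another of its probe sets passed as well (difference -0.67), and averaged over its probe sets the gene missed the fold threshold (-0.56). All 6 genes of the group were lower at an unadjusted p under 0.05 with no overlap between the numbers, and their median was -0.35. CDC45, the helicase cofactor, read 10.02 (miR-124) and 10.13 (control) on arrays numbered 2, against 10.57 (miR-124) and 10.35 (control) on arrays numbered 1 (difference -0.38). The GINS subunits GINS1, GINS2, GINS3 and GINS4 had differences of -0.30, -0.42, -0.23 and -0.32. Of RPA, the complex that coats single-stranded DNA, RPA1 had a difference of -0.23, RPA2 of -0.081 and RPA3 of -0.26, with no overlap between the numbers for any of the 3 and an unadjusted p under 0.05 for RPA1 and RPA3.

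In the priming complex the subunits parted. PRIM1, the catalytic subunit of primase, read 10.71 (miR-124) and 10.85 (control) on arrays numbered 2, against 11.41 (miR-124) and 11.34 (control) on arrays numbered 1, a 1.51-fold lower level (difference -0.59, SE 0.095, limma unadjusted p = 0.00086, adjusted p = 0.088). Without array 1 (-0.56) or array 2 (-0.52) of miR-124 cells it missed the fold threshold. The levels of POLA1 given above amount to a difference of -0.51 (SE 0.16) and PRIM2, the large primase subunit, had -0.30 (SE 0.10). POLA2 was flat by number, with -0.0042 (SE 0.12). Among the main replicative polymerases POLE2, the second subunit of polymerase epsilon, read 9.73 (miR-124) and 9.95 (control) on arrays numbered 2, against 10.65 (miR-124) and 10.46 (control) on arrays numbered 1, a 1.64-fold lower level (difference -0.71, SE 0.12, limma unadjusted p = 0.0011, adjusted p = 0.094). The catalytic subunit POLE of the same enzyme had a difference of -0.12 (SE 0.10) and overlapped between the numbers. Of polymerase delta, the catalytic POLD1 and the accessory POLD3 had -0.29 and -0.36, both at an unadjusted p under 0.05, and POLD2 had -0.13.

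The clamp and its loader were all lower on arrays numbered 2 by their means, by differing amounts. RFC5 passed the threshold by number, with 9.41 (miR-124) and 10.00 (control) on arrays numbered 2, against 10.33 (miR-124) and 10.36 (control) on arrays numbered 1, a 1.56-fold lower level (difference -0.64, SE 0.19, limma unadjusted p = 0.017, adjusted p = 0.23). Array 2 minus array 1 was -0.92 in miR-124 cells and -0.36 in control cells. The call did not hold without array 2 of miR-124 cells (-0.34) or without array 1 of control cells (-0.62, unadjusted p = 0.054). RFC4 read 11.65 (miR-124) and 11.77 (control) on arrays numbered 2, against 12.15 (miR-124) and 12.12 (control) on arrays numbered 1 (difference -0.42, SE 0.092). RFC3, RFC2 and RFC1 had differences of -0.40, -0.29 and -0.11. PCNA, the sliding clamp, read 13.18 (miR-124) and 13.29 (control) on arrays numbered 2, against 13.40 (miR-124) and 13.41 (control) on arrays numbered 1 (difference -0.17, SE 0.090). A much dimmer PCNA probe set passed the threshold, with 6.01 (miR-124) and 5.99 (control) on arrays numbered 2, against 6.48 (miR-124) and 6.95 (control) on arrays numbered 1 (difference -0.72). All 6 genes of the group had both arrays numbered 2 below both numbered 1, and their median was -0.34.

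Of the enzymes that finish lagging-strand fragments, FEN1, the flap nuclease, had a number difference of -0.24 (SE 0.097) with no overlap. Its other probe sets, which are dimmer, had larger differences of -0.45 and -0.56 (limma unadjusted p = 0.0030 and 0.0023), short of the fold threshold. LIG1, the ligase that seals the fragments, read 9.82 (miR-124) and 9.73 (control) on arrays numbered 2, against 9.88 (miR-124) and 9.72 (control) on arrays numbered 1. In nucleotide supply, all 4 enzymes were lower at an unadjusted p under 0.05 with no overlap (median -0.34). The ribonucleotide reductase subunits RRM1 and RRM2 had differences of -0.38 and -0.29, and TYMS, which makes thymidylate, had -0.26. TK1, the thymidine kinase of cycling cells, read 9.97 (miR-124) and 10.21 (control) on arrays numbered 2, against 10.78 (miR-124) and 10.37 (control) on arrays numbered 1 (difference -0.49, SE 0.16). Array 2 minus array 1 was -0.81 in miR-124 cells and -0.16 in control cells.

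The number difference was not confined to the brightest probe sets. Of the 115 probe sets of the members, 106 (92.2%) had a lower mean on arrays numbered 2, against 49.5% of all probe sets, and 91 (79.1%) had both arrays numbered 2 below both numbered 1, against 21.9% of all probe sets. The threshold was passed by 8 of the 115 probe sets, from 7 genes and all lower on arrays numbered 2. Of all probe sets 0.828% were lower past it, a smaller share. Probe sets of both signs occurred in 3 members by number and in 20 by condition. A single probe set read 13 of the members, and 29 of the 115 have names that mark probes shared with other transcripts, so that signal from related genes may enter them. Only 1 of the 115, a probe set of RFC4, lay under the background mean.

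**Figure D4:**
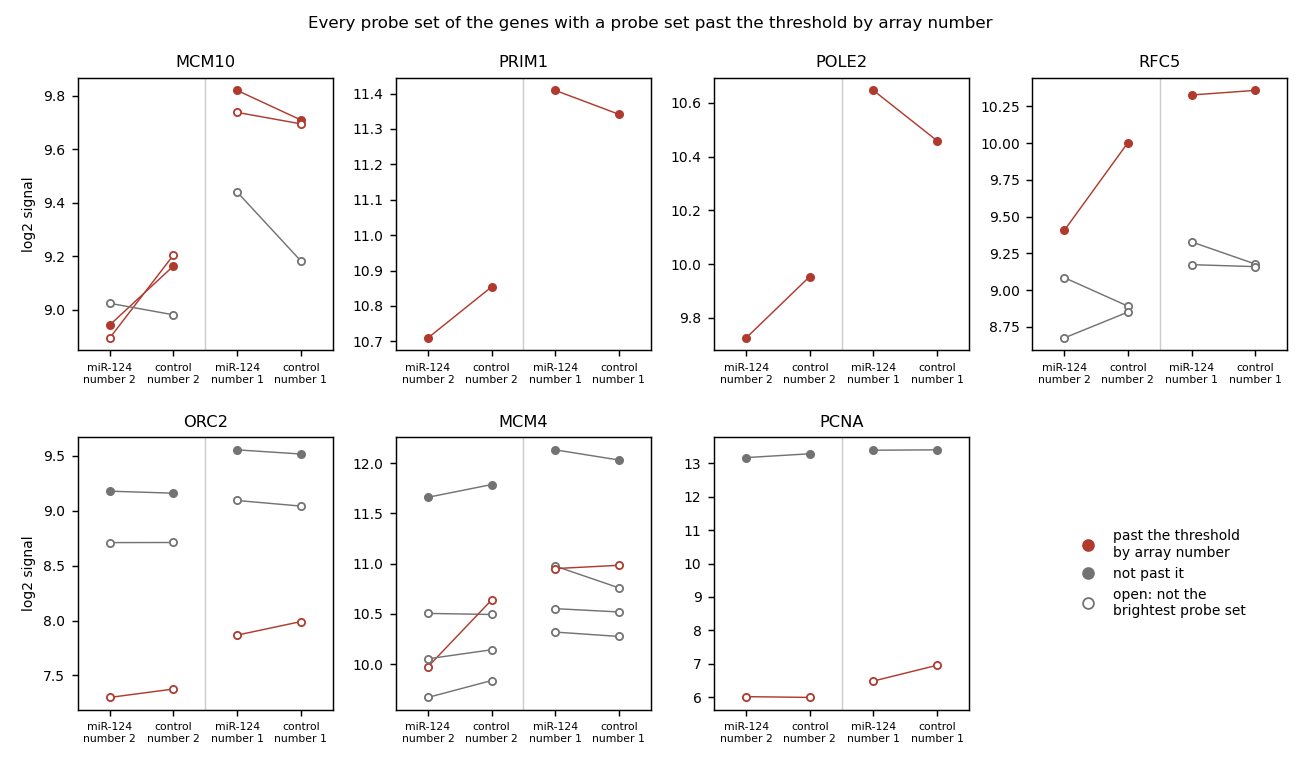
Log2 level on each array of every probe set of the 7 members with a probe set past the threshold by number (red), 1 panel per gene, with lines that join the arrays of the same number and open symbols for all but the brightest probe set. Vertical axes differ between panels and do not start at 0, and each red probe set has both arrays numbered 2 (left) below both numbered 1 (right).

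Both conditions showed the number difference when each was taken alone. Array 2 was lower than array 1 in miR-124 cells and also in control cells for 41 members (91.1%), against 31.7% of all genes and 35.7% of genes above the median level. The median distance, array 2 minus array 1, was -0.40 in miR-124 cells and -0.20 in control cells. For 41 members (91.1%) array 2 minus array 1 had a lower value in miR-124 cells than in control cells, whatever its sign, against 48.9% of all genes. These are not the same 41 genes. ORC4, with a positive value in both conditions (0.033 in miR-124 cells and 0.16 in control cells), is counted here only. Whether the distance differs between the conditions was not tested, since 4 arrays leave no residual degree of freedom for it. Across the 45 members the distances in the 2 conditions had a Pearson correlation of 0.75 and a Spearman correlation of 0.73, and across all genes 0.67 and 0.51. Genes are not independent replicates, and each distance comes from 2 arrays.

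**Figure D5:**
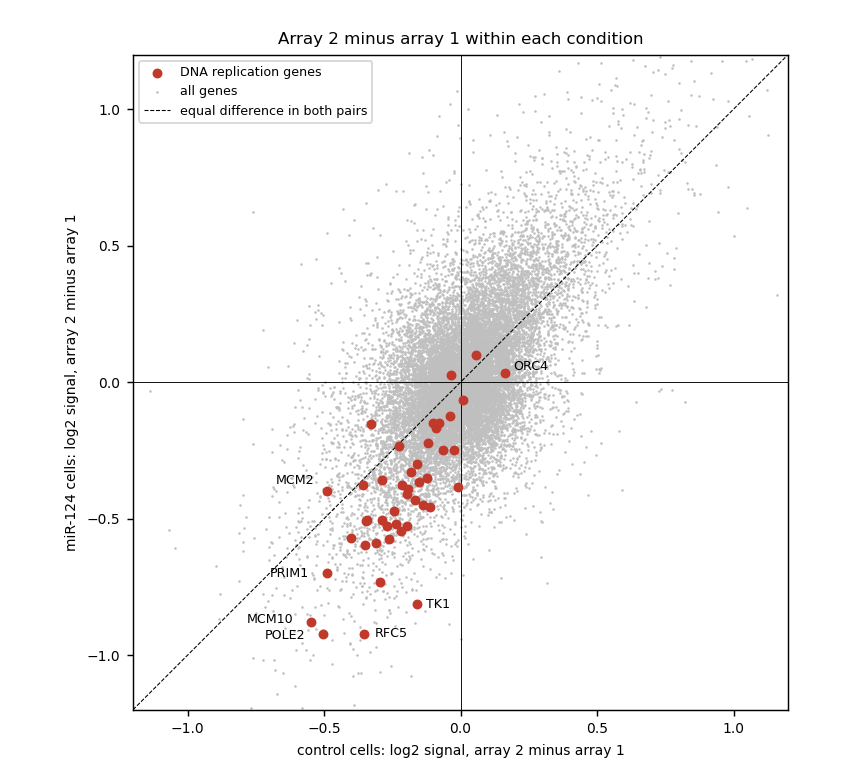
Distance between the arrays of a condition (array 2 minus array 1, log2) in miR-124 cells on the vertical axis and in control cells on the horizontal axis, for the 45 members over all genes, with the diagonal of equal distance. Axes end at 1.2 in either direction, which leaves out 94 of all genes and no member, and 41 members lie in the lower left quadrant.

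The sign of the difference between conditions went with the array number. Among arrays numbered 2 alone, miR-124 minus control had a median of -0.11 over the members and 34 were lower in miR-124 cells. Among arrays numbered 1 alone the median was 0.093 and 36 were higher. The sign was negative on arrays numbered 2 and positive on arrays numbered 1 for 26 members (57.8%), against 18.7% of all genes. For 1 member the signs were the other way round. For 10 members the difference was positive in both, as for CDT1 (0.23 on arrays numbered 2 and 0.42 on arrays numbered 1), and for 8 it was negative in both, as for MCM2 (-0.090 on arrays numbered 2 and -0.18 on arrays numbered 1).

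The promoter letters shown above went with no difference in the medians by number. The 19 genes with an E2F match had a median number difference of -0.30 and the 20 genes with a window and no match had -0.30 as well. Both arrays numbered 2 lay below both numbered 1 for 14 of the 19 and for 18 of the 20. Of the 4 genes past the threshold, POLE2 had a match and MCM10, PRIM1 and RFC5 had none in these windows.

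Other genes of the replication fork, from a second list, had the same direction by number. Of 40 measured, 36 had a lower mean on arrays numbered 2 (median -0.25). At an unadjusted p under 0.05, 19 of the 40 were lower, a larger share than the 6.27% of all genes. At that level 2 of the 40 were higher, against 1474 of all 18244 genes. Where 0.68% of all genes were lower past the threshold, 3 of the 40 passed it, all lower. These were WDHD1, a fork scaffold that ties polymerase alpha to the helicase, with a difference of -0.68 (SE 0.087), DUT, which removes dUTP, with -0.66 (SE 0.11), and DSCC1, part of an alternative clamp loader, with -0.62 (SE 0.086). None of the 3 overlapped between the numbers. WDHD1 read 8.06 (miR-124) and 8.04 (control) on arrays numbered 2, against 8.77 (miR-124) and 8.68 (control) on arrays numbered 1. DUT read 9.96 (miR-124) and 10.21 (control) on arrays numbered 2, against 10.77 (miR-124) and 10.72 (control) on arrays numbered 1. DSCC1 read 9.89 (miR-124) and 9.88 (control) on arrays numbered 2, against 10.54 (miR-124) and 10.47 (control) on arrays numbered 1. Without array 1 of miR-124 cells DSCC1 just missed the threshold (-0.58), and without array 2 DUT missed it (-0.54). The 2 genes that were higher are named after their values were seen. POLD4, the smallest subunit of polymerase delta, had a difference of 0.51 (SE 0.16), and RRM2B, the reductase subunit that p53 induces, had 0.43 (SE 0.091), while its cycling counterpart RRM2 was lower. Between conditions none of the 40 passed the threshold (median 0.042), where 0.153% of all genes did. At an unadjusted p under 0.05 alone DBF4B, RNASEH2C and DTYMK were higher in miR-124 cells and ATAD5 was lower, also named after their values were seen. Of all genes 2.7% were higher and 1.76% lower at that level.

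Of 18 E2F and retinoblastoma pathway genes, 14 had a lower mean on arrays numbered 2 (median of the 18, -0.21). At an unadjusted p under 0.05, 6 of the 18 were lower, a larger share than the 6.27% of all genes. The genes past the threshold were E2F2, an activator, and E2F8, a repressor, where 0.68% of all genes were lower past it. E2F2 read 8.97 (miR-124) and 9.10 (control) on arrays numbered 2, against 9.88 (miR-124) and 9.63 (control) on arrays numbered 1 (difference -0.72, SE 0.12). E2F8 read 7.36 (miR-124) and 7.59 (control) on arrays numbered 2, against 8.32 (miR-124) and 8.0 (control) on arrays numbered 1 (difference -0.68, SE 0.14), and it missed the threshold without array 1 of miR-124 cells (-0.52) or without array 2 (-0.57). Between conditions none of the 18 passed the threshold (median 0.016), where 0.153% of all genes did. Only E2F4 had an unadjusted p under 0.05 (difference 0.32, SE 0.12, n = 2 arrays each, limma unadjusted p = 0.045), where 2.7% of all genes were higher. Of 9 genes that control licensing through ubiquitin, 7 had a lower mean on arrays numbered 2 and 2 a higher one (median -0.14). At an unadjusted p under 0.05 FBXO5 and DTL were lower, where 6.27% of all genes were. FBXO5, the inhibitor of the anaphase-promoting complex, read 8.44 (miR-124) and 9.06 (control) on arrays numbered 2, against 9.52 (miR-124) and 9.46 (control) on arrays numbered 1. It passed with -0.74 (SE 0.20), and without array 2 of miR-124 cells its difference was -0.43 and did not pass.

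Some measures of the samples went with the array number. The signal of GAPDH probe sets at the 3′ end minus that at the 5′ end, a sign of RNA integrity and labelling, was -0.24 (miR-124) and -0.35 (control) on arrays numbered 2, against -0.40 (miR-124) and -0.45 (control) on arrays numbered 1. The 9 hybridization control probe sets averaged 12.47 (miR-124) and 12.42 (control) on arrays numbered 2, against 12.35 (miR-124) and 12.36 (control) on arrays numbered 1. The same ratio for ACTB was 0.97 and 0.99 in miR-124 cells (arrays 1 and 2), against 1.17 and 1.13 in control cells, and the 12 poly-A controls averaged 6.63 and 6.86 in miR-124 cells, against 6.44 and 6.32 in control cells. Those went with the condition. Their part in the results was not tested.

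The labelled cell type and others were checked by their markers. Of the T cell markers, 9 of 10 were named on the array and all 9 lay above the background mean. CD3D and CD3G read 11.73 to 12.07 and ZAP70 9.41 to 9.97. Nearer to background were CD3E (5.33 to 5.82), CD4 (6.14 to 6.24), CD5 (5.55 to 5.69), CD28 (5.85 to 6.01) and LCK (6.41 to 6.61). CD2, an adhesion receptor of T cells named after its values were seen, was higher on arrays numbered 2, with 11.15 (miR-124) and 11.06 (control), against 10.58 (miR-124) and 10.75 (control) on arrays numbered 1 (difference 0.44, SE 0.10). The summed linear signal of the 9 was 11423 (miR-124) and 10829 (control) on arrays numbered 2, against 11176.5 (miR-124) and 10409 (control) on arrays numbered 1. Of 4 fibroblast markers COL3A1 passed the threshold by number, where 1.6% of all genes were higher past it. It read 10.53 (miR-124) and 10.60 (control) on arrays numbered 2, against 9.75 (miR-124) and 9.94 (control) on arrays numbered 1 (difference 0.72, SE 0.10). The sum of the 4 was 1962 (miR-124) and 2067 (control) on arrays numbered 2, against 1399 (miR-124) and 1513 (control) on arrays numbered 1. COL1A1 (8.67 to 8.84), COL1A2 (5.46 to 5.64) and COL3A1 lay above the background mean on every array, and DCN (4.87 to 4.96) lay under it. The sum of 4 keratinocyte markers was 1439 (miR-124) and 1553 (control) on arrays numbered 2, against 1900 (miR-124) and 2169 (control) on arrays numbered 1. The sum of 4 monocyte markers was 991 (miR-124) and 1107 (control) on arrays numbered 2, against 1511 (miR-124) and 1242 (control) on arrays numbered 1. KRT10 carried most of the first sum, with a number difference of -0.47 (SE 0.11), and CSF1R most of the second, with -0.42 (SE 0.13). The other 3 monocyte markers had a higher mean on arrays numbered 2. KRT10 (10.39 to 11.01), CSF1R (9.81 to 10.47) and CD14 (6.06 to 6.23) lay above the background mean on every array. KRT5 and KRT14 read at most 5.73, and LYZ and FCGR3A lay under the background mean on every array. The 3 B cell markers summed to 584 (miR-124) and 717 (control) on arrays numbered 2, against 615 (miR-124) and 640 (control) on arrays numbered 1, and overlapped. CD79A (7.34 to 7.44) and CD79B (8.52 to 8.95) lay above the background mean on every array, and MS4A1 read 4.88 to 5.75. The part of these cell types in the number difference was not tested.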

How the data were processed

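Total RNA of SeAx cells was read on 4 PrimeView arrays, 2 per condition. The authors summarized probes with RMA, after a background correction and quantile normalization, and deposited log2 values. RMA and limma are also named, with no version, in the submitters' processing notes. The log2 values were used as deposited, and array controls (202 of 49495 probe sets) were left out. Depth has no meaning for arrays, and their number limits the precision. The platform annotation gave 1 symbol to 45278 of 49293 probe sets, several to 1333 and none to 2682, and no gene was named from those with several. Each of the 18244 genes was represented by its probe set of highest mean.

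Conditions and array numbers were compared in separate fits by lmFit and eBayes of limma 3.58.1 (R 4.3.3), each with 1 term and 2 residual degrees of freedom. The prior added 2.58 degrees of freedom for condition and 3.86 for number. Unless called adjusted, a p is unadjusted, and adjustment was by Benjamini-Hochberg over all genes or all probe sets. Only the fit by condition was tested on simulated data. The simulated arrays varied independently, while deviations of same-numbered arrays in these data correlated at 0.67, so that setting was not covered.

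All members were accounted for. Values on each array were given for members past the threshold in either comparison, the 4 largest differences in each direction, members with any probe set past it and some further genes of each role, and up to 4 genes past it in each other list. The members and lists were chosen with earlier results of these data known. Some genes of the lists are not reported here. No promoter window was held for GINS4, MCM4, MCM5, POLD3, RPA2 and RPA3. Motifs were searched in RefSeq promoter windows, and no coordinates of the arrays were used. The alternatives were a block for the other factor, leaving out each array, cyclic loess, genes above the median only, an eBayes trend, array weights and a gene's mean over its probe sets.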

Additional observations from a re-analysis of the deposited data

Results flagged for a closer look

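For the ligase LIG1 and the polymerase alpha subunit POLA2 the difference between the arrays had opposite signs in the 2 conditions, at sizes below the standard error of the number difference (0.10 and 0.12). LIG1, array 2 minus array 1, was -0.067 on the log2 scale in miR-124 cells and 0.0091 in control cells. POLA2 was 0.025 in miR-124 cells and -0.033 in control cells. Each value comes from 2 arrays, and the difference between the conditions was not tested.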

How the results depend on the processing

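Between conditions the count of members past the threshold was 0 to 2 with 1 array left out (2 without array 1 of miR-124 cells, POLA1 and RFC5) and 0 under the 6 other alternatives. The median stayed between -0.21 and 0.21 with 1 array left out and was -0.032 after cyclic loess. With the array number as a replicate block the count of members stayed at 0 and the median at -0.013, while the genes past the threshold numbered 49, against 28 without the block. They numbered 33 to 340 with 1 array left out. Deviations of same-numbered arrays from their condition means correlated at 0.67 over all genes, but with 2 pairs and no label that ties them the arrays share only a number. An array left out also leaves the array numbers unequal between the conditions. The number of members higher in miR-124 cells was 7 to 43 with 1 array left out, against 22 with all arrays, so many members changed sign. Among those followed one by one these were RFC5 (-0.77 to 0.15), POLA1 (-0.63 to 0.11), MCM3 (-0.45 to 0.062) and MCM6 (-0.46 to 0.11) between conditions.

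Between array numbers 2 to 7 members passed with 1 array left out, against 4 with all arrays. The 2 were MCM10 and POLE2, without array 2 of miR-124 cells, and the 7, without array 2 of control cells, were those 4 with MCM6, POLA1 and TK1. With a gene's mean over its probe sets 2 passed (PRIM1 and POLE2), and under the 5 other alternatives the same 4 passed. The median was -0.37 to -0.27 with 1 array left out. Of all genes 63 had an adjusted p under 0.05 by number, 17 with a block for condition and 0 to 11 with 1 array left out. The ORC3 difference was -0.029 to 0.19 with 1 array left out and -0.050 with the probe set mean. PRIM1 missed the fold threshold without array 1 (-0.56) or array 2 (-0.52) of miR-124 cells, and with the probe set mean MCM10 (-0.56), RFC5 (-0.44) and WDHD1 (-0.56) missed it. An array left out lowers the number of arrays behind each value, and the lone array of a condition or number is then assumed to vary like the others. The cause of the other shifts was not tested.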
